A study of Mus musculus with 8 samples.

Results

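The isolated zinc finger genes are the mouse protein-coding genes named Zfp plus a number that lie on an autosome other than chromosome 4 and have no other such gene within 1 Mb of their span; Zfp36 was left out. By this rule 89 genes were found among 332 Zfp genes on those autosomes and among 21887 protein-coding genes of the RefSeq table for GRCm38.p6. The other 243 Zfp genes have a neighbour of the same name type within 1 Mb and are called clustered here. The 89 genes lie on 18 chromosomes, span a median of 23.1 kb (3.28 to 456 kb) and are a median of 6.31 Mb from the nearest other Zfp gene, up to 48.3 Mb. Nearest the limit, Zfp951 was kept with a gap of 1.02 Mb and Zfp598 with 1.07 Mb, whereas Zfp276 and Zfp469 were left out with a gap of 0.982 Mb, and Zfp592 and Zfp710 with 0.901 Mb. Zfp276 had 3.03% and 0% of its span under peaks in KO cells, against 84.3% and 82.4% in WT cells.

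The study mapped H3K36me3, histone H3 trimethylated at lysine 36, by chromatin immunoprecipitation and sequencing in bone marrow stromal cells (BMSCs) of C57BL/6J mice in which both Setd2 alleles carry loxP sites (Setd2 fl/fl). KO cells were infected with a lentivirus that expresses Cre recombinase, and WT cells were Setd2 fl/fl as well and received a lentivirus that expresses GFP, so that both groups carry the floxed alleles. Both were at passage 2 and had 4 days of puromycin at 2 µg/ml before fixation in 1% formaldehyde for 10 min. Each genotype has 2 H3K36me3 libraries, 1 Input library (chromatin without immunoprecipitation) and 1 IgG library (a non-specific antibody), and the labels do not state whether the 2 libraries came from separate cultures or mice, so tests measure only the spread between these libraries. The authors called peaks in each H3K36me3 library 2 times, against the Input and against the IgG of its genotype, so both libraries of a genotype share their controls. The lists against Input held 122589 and 159459 peaks in KO cells, against 242745 and 246258 in WT cells. Read depth is unknown from peak lists. The value used throughout is coverage, the percent of a gene's span under peaks of 1 library; the lists against Input are meant unless IgG is named.

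Zinc finger proteins of the C2H2 type bind DNA, and some bind RNA, through small loops held by a zinc ion. Many mammalian members carry a KRAB domain, which recruits the corepressor KAP1 (gene Trim28) and the H3K9 methyltransferase Setdb1, best known for silencing transposable elements; genes of this type often lie in tandem clusters. Others are conserved regulators of lineage, cell division or RNA. Setd2 is the methyltransferase that lays H3K36me3 on nucleosomes behind elongating RNA polymerase II, so the mark lies over the bodies of transcribed genes and thins out at their starts. In human cells the last exons of many KRAB zinc finger genes carry H3K36me3 together with H3K9me3.

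The RefSeq promoter table held a start for 72 of the 89 genes, with 100 windows of the 250 bases before a start. A start is where the mark was thinnest in these genes. In KO cells 0 of the 100 windows had a peak in both libraries, against 1 window in WT cells. Over all 32851 windows of the table, 127 (0.387%) had a peak in both KO libraries and 874 (2.66%) in both WT libraries. The windows of the isolated genes held a median of 14 CG dinucleotides, which read the same on both strands, against 6 over all windows. Of these, 5 windows are shown, 5′ to 3′ on the gene's strand in GRCm38.p6, with each CG in capitals. Zfp655 had one of the largest falls, Zfp3 the highest coverage in KO cells, Zfp42 no WT peak at all, and an upstream start of Zfp791 is the window with peaks in both WT libraries, shown with a second Zfp791 start for comparison.
Zfp655, chr5:145231492-145231741, plus strand: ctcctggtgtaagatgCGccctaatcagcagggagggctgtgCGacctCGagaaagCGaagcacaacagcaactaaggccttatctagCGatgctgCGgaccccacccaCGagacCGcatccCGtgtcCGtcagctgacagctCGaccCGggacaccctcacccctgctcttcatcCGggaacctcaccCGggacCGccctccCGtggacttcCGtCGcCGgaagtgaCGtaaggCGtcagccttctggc
Zfp3, chr11:70764197-70764446, plus strand: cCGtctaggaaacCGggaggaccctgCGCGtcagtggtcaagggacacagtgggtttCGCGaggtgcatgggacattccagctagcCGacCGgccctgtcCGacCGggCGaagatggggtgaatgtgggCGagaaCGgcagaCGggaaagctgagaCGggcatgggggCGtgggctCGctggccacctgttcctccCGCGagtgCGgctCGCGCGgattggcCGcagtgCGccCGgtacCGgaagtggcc
Zfp42, chr8:43307010-43307259, minus strand: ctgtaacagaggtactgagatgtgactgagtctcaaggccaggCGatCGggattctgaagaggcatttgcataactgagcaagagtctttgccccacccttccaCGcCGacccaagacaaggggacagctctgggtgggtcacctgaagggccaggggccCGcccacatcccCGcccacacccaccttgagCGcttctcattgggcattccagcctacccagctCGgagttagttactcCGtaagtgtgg
Zfp791, chr8:85123096-85123345, minus strand: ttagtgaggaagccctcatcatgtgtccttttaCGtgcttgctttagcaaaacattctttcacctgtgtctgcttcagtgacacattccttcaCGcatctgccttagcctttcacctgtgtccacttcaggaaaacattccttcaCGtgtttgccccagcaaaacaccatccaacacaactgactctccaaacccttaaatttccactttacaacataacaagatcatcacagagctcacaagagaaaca
Zfp791, chr8:85119692-85119941, minus strand: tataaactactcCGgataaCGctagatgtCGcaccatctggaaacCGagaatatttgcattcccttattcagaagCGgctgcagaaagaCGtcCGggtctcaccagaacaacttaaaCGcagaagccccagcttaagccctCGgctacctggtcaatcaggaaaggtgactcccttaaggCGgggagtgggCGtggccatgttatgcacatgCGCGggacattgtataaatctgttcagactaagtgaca
The Zfp655, Zfp3 and Zfp42 windows had 21, 27 and 9 CG, and 16.3%, 8.56% and 40.3% of all windows had at least as many. None of the 3 had a peak in any of the 4 libraries. The upstream Zfp791 window had 3 CG, a number that 71.0% of all windows reached, and 0% and 0% of it lay under peaks in KO cells, against 73.2% and 29.2% in WT cells. The second Zfp791 window had 13 CG, reached by 31.5% of all windows, and no peak in any library.

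H3K36me3 coverage of the isolated zinc finger genes was lower in KO cells at nearly every gene that could be tested. Coverage averaged over the 89 genes was 4.58% and 5.73% in KO libraries (5.16 ± 0.813, SD, n = 2), against 43.9% and 42.2% in WT libraries (43.0 ± 1.16, SD, n = 2), and the groups did not overlap. Over all protein-coding genes it was 2.92% and 3.72% in KO cells, against 26.3% and 25.5% in WT cells. The median difference, KO minus WT, was -39.1 percentage points for the isolated genes, -44.7 for the clustered Zfp genes and -10.6 for all protein-coding genes. Of the 89 genes, 74 passed the filter of 10% mean coverage over the 4 libraries, and 72 of these were lower in KO cells in a limma fit over all genes (Benjamini-Hochberg adjusted p below 0.05), while 0 were higher, also at an unadjusted p below 0.05. In that fit 92.6% of all 10809 genes tested were lower and 0.555% were higher, so the share called among these genes was near the background. The 15 genes below the filter had no call. Because KO coverage was low, genes passed this filter mainly through their WT coverage. Genes low in WT cells were thus mostly left out, which favours calls of lower. Both KO values lay below both WT values in 77 of the 89 genes and above them in 3, against 54.4% and 10.4% of all protein-coding genes. An exact permutation test of 2 against 2 libraries cannot give a p below 0.333 for a single gene.

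Since most genes tested were lower, the fit was repeated after every library had been scaled to the same mean gene coverage. In it 26 isolated genes were lower and 5 were higher, against 45.2% and 2.41% of all genes tested. The 5 higher ones were Zfp791, Zfp558, Zfp704, Zfp438 and Zfp951, and all 5 had a lower unscaled mean in KO cells. The median scaled difference was -7.21 points for the isolated genes, 5.62 for the clustered ones and 0 for all protein-coding genes.

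Coverage in WT cells varied widely from gene to gene. In WT cells 35 of the 89 genes (39.3%) were covered over 50% or more of their span in both libraries, against 22.3% of all protein-coding genes and 132 of 243 clustered Zfp genes (54.3%). Against IgG 21 of the 89 were. At the other end, 3 genes, Zfp42, Zfp474 and Zfp648, had no peak in either WT library, against 25.6% of all genes. In KO cells 23 of the 89 genes had no peak in either library, against 7234 of all 21887 protein-coding genes. Coverage differed among length classes, with no test run. The 27 genes under 15 kb had medians of 0% and 0% in KO cells, against 52.9% and 48.1% in WT cells. The 38 genes of 15 to 40 kb had medians of 4.37% and 4.57% in KO cells, against 58.4% and 55.1% in WT cells. The 24 genes of 40 kb or more had medians of 2.87% and 3.28% in KO cells, against 24.9% and 22.8% in WT cells. Spans were not split into exons, and 11 of the 89 genes share bases with another protein-coding gene, 6 of them over 10% or more of their span.

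**Figure D1:**
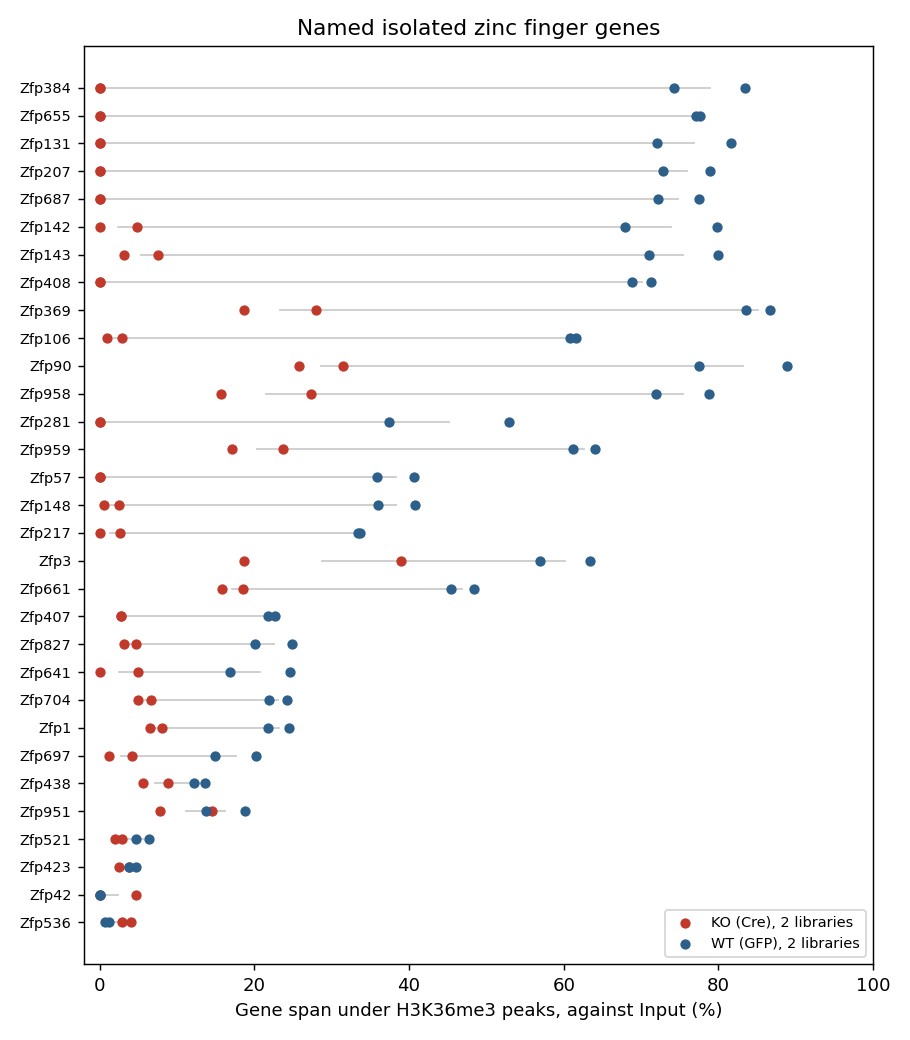
Percent of gene span under H3K36me3 peaks called against Input for the 31 isolated zinc finger genes named by rule, in KO libraries (red, 2 points a gene) and WT libraries (blue, 2 points a gene); grey lines join the means, and genes run from the largest fall at the top to the largest rise at the bottom. Zfp384 was at 0% in both KO libraries and at 83.5% and 74.2% in WT, whereas at Zfp951 the KO and WT points overlap.

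The largest falls were at genes with broad coverage in WT cells and little or no coverage in KO cells. A fall in points cannot exceed the WT coverage, so this ranking partly follows it. Zfp384 (chr6:125009017-125037870), known as a nuclear matrix factor that restrains bone formation in mice, had 0% and 0% in KO cells, against 83.5% and 74.2% in WT cells. Its difference was -78.9 ± 3.91 points (SE, n = 2 each; limma adjusted p = 0.000275), the largest of the 74 genes tested. Its coverage in WT cells ran over the whole gene, from 54.4% of the first of 5 equal segments to 93.6% of the last, as means of 2 libraries. Zfp655 (chr5:145231595-145247306) had 0% and 0% in KO cells, against 77.1% and 77.6% in WT cells, a difference of -77.4 ± 1.87 points (limma adjusted p = 0.000211). The longest block covered in both WT libraries was 4.83 kb in Zfp655 and 3.73 kb in Zfp384.

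More genes with little or no KO coverage followed. Zfp131 had 0% and 0% in KO cells, against 72.1% and 81.6% in WT cells. Zfp207, which encodes BuGZ, a partner of the checkpoint protein Bub3 in spindle assembly, had 0% and 0% in KO cells, against 72.8% and 78.9% in WT cells. Zfp687, whose human counterpart is mutated in a form of Paget disease of bone, had 0% and 0% in KO cells, against 77.4% and 72.2% in WT cells; 57.6% of its span is shared with Pi4kb, so its reads and those of Pi4kb cannot be told apart there. The groups did not overlap at any of the 3, and the limma adjusted p lay between 0.000211 and 0.0003. Zfp142 had 4.87% and 0% in KO cells, against 79.8% and 68.0% in WT cells. Zfp143, an activator at many promoters that also works in chromatin looping, had 7.50% and 3.14% in KO cells, against 79.9% and 71.0% in WT cells.

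Genes for RNA-binding, ribosome and spindle proteins had little coverage left in KO cells, as had protein-coding genes in general. This group of 7 was put together from the genes' known roles after their values had been seen, so it is a description. All 7 were tested and lower, 6 of them also after scaling, beside 92.6% and 45.2% of all genes tested. The mean coverage of the 7 was 1.50% and 1.02% in KO cells, against 55.7% and 56.4% in WT cells. Over all protein-coding genes it was 2.92% and 3.72% in KO cells, against 26.3% and 25.5% in WT cells. Zfp622, whose human counterpart acts in maturation of the large ribosomal subunit, had 0% and 0% in KO cells, against 75.4% and 59.8% in WT cells. Zfp598, a ubiquitin ligase that recognises collided ribosomes, had 0% and 0% in KO cells, against 50.7% and 48.1% in WT cells. Zfp106, an RNA-binding protein needed by motor neurons and muscle in mice, had 2.87% and 0.919% in KO cells, against 60.8% and 61.6% in WT cells. Its difference was -59.3 ± 2.07 points (SE, n = 2 each; limma adjusted p = 0.000211). Zfp346, which binds double-stranded RNA, kept somewhat more, with 6.29% and 4.56% in KO cells, against 64.7% and 72.2% in WT cells. Zfp638, a large nuclear RNA-binding protein that also promotes fat cell differentiation in mice, was covered less in WT cells, with 1.35% and 1.68% in KO cells, against 31.2% and 29.0% in WT cells.

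Among 4 genes of the bone, fat and cartilage lineages, Zfp384 and Zfp219 were lower, beside 92.6% of all genes tested. Zfp423 and Zfp521 did not pass the filter. These 4 were grouped by known role after values had been seen. Zfp423, which commits cells to the fat lineage, had 2.54% and 3.84% in KO cells, against 4.73% and 3.77% in WT cells, and the values overlap. Zfp521, which binds and restrains Runx2 in osteoblasts and opposes fat differentiation, had 1.93% and 2.89% in KO cells, against 4.70% and 6.42% in WT cells. Both genes are long, at 300.2 and 286 kb, and carried small scattered peaks: Zfp423 had 14 and 21 in KO cells, against 23 and 16 in WT cells. The 852 bases of Zfp423 covered in both KO libraries included 0 bases covered in both WT libraries. Zfp219, a partner of Sox9 in cartilage cells, had 0% and 0% in KO cells, against 28.9% and 25.2% in WT cells, but shares 10% or more of its span with other protein-coding genes.

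The 5 genes known from pluripotent and germ cells averaged 1.66% and 1.38% in KO cells, against 26.1% and 19.0% in WT cells. The 3 of them that were tested were lower, beside 92.6% of all genes tested. The group was put together after values had been seen. Zfp42, which encodes the embryonic stem cell marker Rex1, had 4.73% and 0% in KO cells, against 0% and 0% in WT cells; the KO value is 1 peak. Zfp57, which keeps DNA methylation at imprinted control regions, had 0% and 0% in KO cells, against 40.6% and 35.9% in WT cells, a difference of -38.3 ± 2.54 points (SE, n = 2 each; limma adjusted p = 0.000491). Zfp281, a repressor that binds GC-rich sites in stem cells, had 0% and 0% in KO cells, against 52.9% and 37.5% in WT cells. Zfp296 had 0% and 0% in KO cells, against 32.2% and 17.8% in WT cells, with the WT libraries well apart. Zfp541, a spermatocyte gene, had 3.58% and 6.90% in KO cells, against 5.01% and 4.04% in WT cells, where the ranges overlap.

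Of 5 genes known from neural, dendritic or epidermal cells, 2 were tested and both were lower, beside 92.6% of all genes tested. This group, too, was put together after values had been seen. Zfp536, a neural repressor and the longest of the 89 genes at 456 kb, had 2.86% and 4.04% in KO cells, against 0.704% and 1.19% in WT cells. It was one of the 3 genes with both KO values above both WT values; the others were Zfp366 and Zfp996. Zfp366, known from dendritic cells, had 4.48% and 4.02% in KO cells, against 0.775% and 2.57% in WT cells. Zfp996 had 6.45% and 8.16% in KO cells, against 0% and 2.36% in WT cells, and none of its bases was covered in both KO libraries. All 3 lay below the filter. With no filter, 1 of 88 isolated genes tested was called higher, Zfp996, by 6.12 points (limma adjusted p = 0.0456). The share of all genes called higher in that fit is not given here, so this call has no background beside it. Zfp365 had 8.37% and 9.22% in KO cells, against 60.3% and 53.9% in WT cells. Zfp750, a regulator of epidermal differentiation, had 0% and 0% in KO cells, against 36.7% and 38.4% in WT cells, but lies wholly inside Tbcd, whose reads cannot be told apart from its own.

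General regulators with moderate coverage fell as well. Zfp148, which binds GC-rich promoters, had 0.541% and 2.51% in KO cells, against 35.9% and 40.7% in WT cells. Zfp217, a corepressor-binding protein amplified in human tumours, had 0% and 2.69% in KO cells, against 33.5% and 33.6% in WT cells. At Zfp217 the WT libraries differed by under 1 point, and the difference was -32.2 ± 2.13 points (SE, n = 2 each; limma adjusted p = 0.000466).

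Among the 74 genes tested, the smallest falls were at genes with low coverage in WT cells, which limits how far they can fall. Zfp951 had 7.77% and 14.6% in KO cells, against 13.7% and 18.8% in WT cells, so the groups overlapped, and its difference of -5.08 ± 3.73 points was not called (limma adjusted p = 0.263). Zfp438 had 5.60% and 8.80% in KO cells, against 13.7% and 12.2% in WT cells; the groups did not overlap, but the difference of -5.74 ± 2.43 points was not called (limma adjusted p = 0.0899). The next 6, which were called, were Zfp697, Zfp1, Zfp704, Zfp641, Zfp827 and Zfp407, with differences of -14.9 to -19.4 points. Zfp1 had 8.01% and 6.55% in KO cells, against 24.5% and 21.8% in WT cells. Zfp407, of 382 kb, had 19 and 18 peaks in KO cells, against 107 and 115 in WT cells, and coverage of 2.75% and 2.82% in KO cells, against 21.7% and 22.7% in WT cells. Zfp641 had 0% and 5.00% in KO cells, against 24.6% and 16.9% in WT cells.

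In all, 13 of the 89 genes (14.6%) were still covered over 10% or more in both KO libraries, against 76 of 243 clustered Zfp genes (31.3%) and 1.95% of all protein-coding genes. They were Zfp3, Zfp11, Zfp90, Zfp184, Zfp267, Zfp369, Zfp386, Zfp558, Zfp639, Zfp661, Zfp791, Zfp958 and Zfp959. Among genes at 50% or more in both WT libraries, 8 of 35 isolated genes (22.9%) and 51 of 132 clustered genes (38.6%) were at 10% or more in both KO libraries, against 3.05% of all such genes. These shares are descriptions of the libraries, with no test between the sets. Against IgG 8 of the 89 genes were at 10% or more in both KO libraries.

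Zfp3 had the highest coverage in KO cells together with Zfp90. Zfp3 (chr11:70764447-70772928) had 18.6% and 38.9% in KO cells, against 63.5% and 56.9% in WT cells. Its KO libraries lay well apart, and its difference of -31.4 ± 8.18 points (SE, n = 2 each, limma adjusted p = 0.0248) left 47.8% of the WT coverage. Its difference was -28.1 points without WT library 1 and -34.7 points without WT library 2, but neither was called (limma adjusted p of 0.311 and 0.253). Zfp90 (chr8:106415295-106426943), a KRAB protein, had 25.8% and 31.5% in KO cells, against 77.5% and 88.8% in WT cells. This difference of -54.5 ± 5.30 points (limma adjusted p = 0.00134) left 34.5% of the WT coverage. Zfp369 had 18.6% and 28.0% in KO cells, against 86.7% and 83.5% in WT cells, the highest WT mean of the 89 genes. Zfp958 had 15.7% and 27.4% in KO cells, against 78.7% and 72.0% in WT cells. Zfp959 had 17.1% and 23.7% in KO cells, against 61.3% and 64.1% in WT cells. Library 2 of the KO cells was the higher one at all 5 genes, and KO and WT values did not overlap at any. The calls of Zfp369, Zfp958 and Zfp959 were also lost when either WT library was left out, with limma adjusted p of 0.0589 to 0.0945 and differences of -60.2 and -63.4 points at Zfp369, -50.4 and -57.2 at Zfp958, and -43.7 and -40.8 at Zfp959. After scaling every library to the same mean, none of the 5 was called in either direction (limma adjusted p of 0.150 to 0.291).

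**Figure D2:**
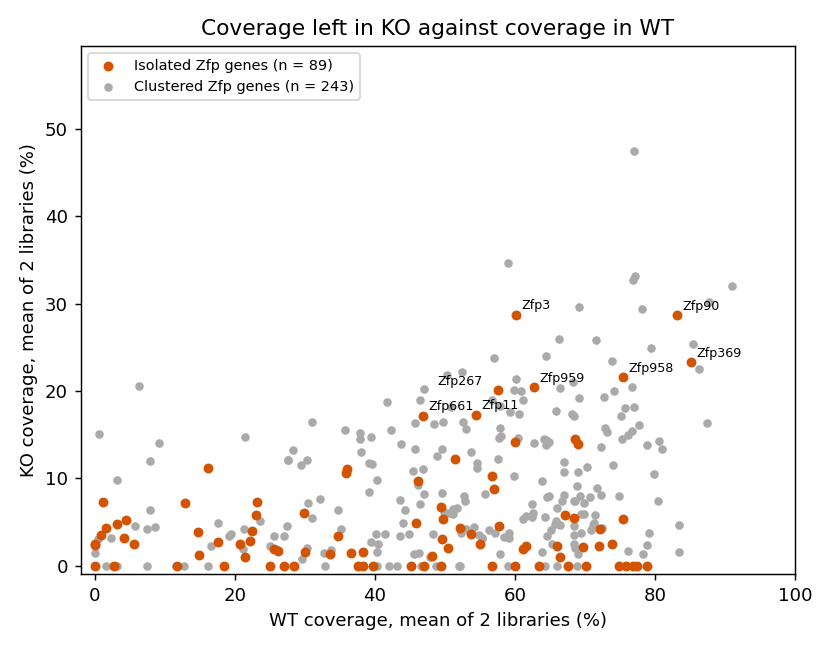
Mean coverage of each gene in KO cells (vertical axis, %) against that in WT cells (horizontal axis, %), for 89 isolated (orange) and 243 clustered (grey) Zfp genes, against Input; isolated genes with a KO mean of 15% or more carry their names. Many isolated genes lie at or near 0 in KO; Zfp3 and Zfp90 stand highest, and Zfp90 and Zfp369, which have the highest WT means, have KO means of 28.7% and 23.3%.

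Of the 89 genes, 16 are known KRAB proteins; this list came from general knowledge of the mouse protein or its human counterpart, was written after values had been seen and is not complete. All 16 were tested and lower in KO cells, beside 92.6% of all genes tested, with mean coverage of 9.81% and 12.8% in KO cells, against 52.3% and 53.5% in WT cells. The other 73 genes averaged 3.44% and 4.18% in KO cells, against 42.0% and 39.7% in WT cells. Of the 13 genes at 10% or more in both KO libraries, 8 were on the KRAB list and 5 were not. The list was not uniform in KO cells: Zfp655 and Zfp57 had no KO peak, while Zfp90 and Zfp369 were among the highest. Zfp267 had 12.4% and 27.7% in KO cells, against 62.2% and 53.1% in WT cells. Zfp184 had 12.7% and 11.8% in KO cells, against 47.4% and 55.4% in WT cells. After scaling each library to the same mean, 2 of the 16 were lower and 2 higher, beside 45.2% and 2.41% of all genes tested. The median difference of the 16 turned to 23.5 points, beside 0 for all protein-coding genes.

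Mean coverage in KO cells was higher toward the 3′ ends of the genes, as it was in WT cells, though the KO median over genes was 0 in every segment of both libraries. In the 72 genes with a known strand, mean coverage of the first of 5 equal segments was 1.38% and 1.17% in KO cells, against 15.1% and 15.5% in WT cells. In the middle segment it was 4.13% and 6.21% in KO cells, against 50.5% and 49.7% in WT cells. In the last segment it was 7.94% and 9.90% in KO cells, against 63.6% and 61.3% in WT cells. The last segment minus the first was 7.65 points in KO cells and 47.1 points in WT cells. In KO cells the most covered segment was the last in 20 of the 72 genes, the fourth in 12, the third in 9, the second in 7 and the first in 4, while 20 genes had no KO coverage in any segment. In WT cells it was the last in 28 genes and the fourth in 27. The 208 clustered genes had 14.4% and 17.4% in the last segment in KO cells, against 69.9% and 69.0% in WT cells, and all 17492 genes with a strand had 3.28% and 4.13% in KO cells, against 37.0% and 35.9% in WT cells.

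**Figure D3:**
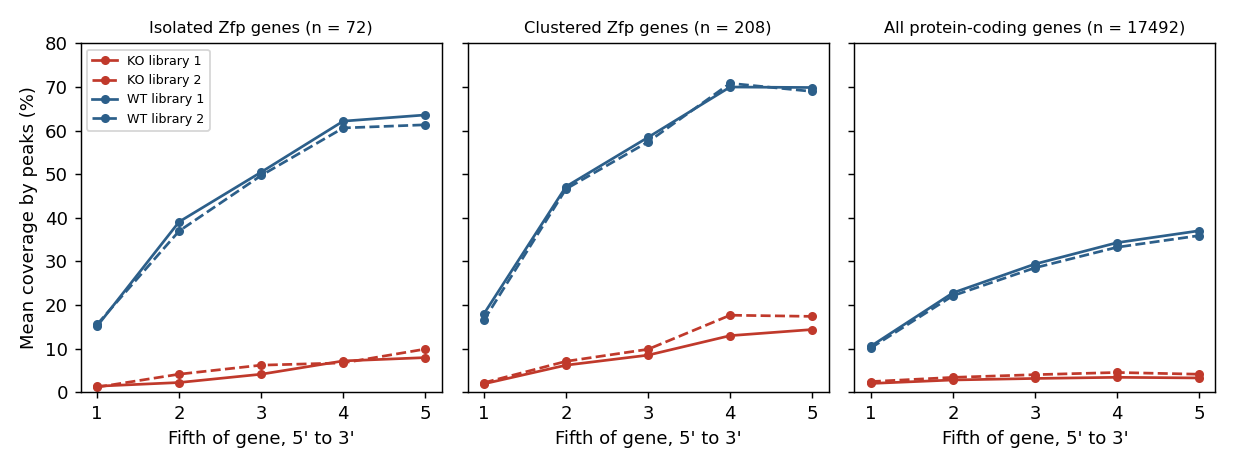
Mean percent of each of 5 equal gene segments under peaks against Input, from the 5′ to the 3′ end, in KO (red) and WT (blue) libraries, with library 1 as solid and library 2 as dashed lines, for 72 isolated Zfp genes, 208 clustered Zfp genes and 17492 protein-coding genes with a known strand. In isolated genes WT coverage climbs to 63.6% and 61.3% in the last segment, and KO coverage reaches 7.94% and 9.90% there.

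All 11 of the 13 genes with a known strand had their most covered KO segment as the last or the fourth, and 10 of the 11 had no KO coverage in the first. In Zfp3 the last segment was covered over 69.5% and 100% in KO cells, against 100% and 100% in WT cells. In Zfp959 the fourth segment was covered over 56.2% and 51.7% in KO cells, against 100% and 100% in WT cells. In Zfp958 the fourth segment was covered over 42.8% and 50.2% in KO cells, against 100% and 100% in WT cells. Zfp661 differed in where the 2 KO libraries placed their peaks: library 1 covered 44.8% of the fourth and 22.3% of the last segment, library 2 covered 19.7% and 59.5%.

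The 2 KO libraries shared few bases. In the 89 genes 30.1 kb were covered in both KO libraries, or 8.84% of the bases covered in either, whereas WT libraries shared 49.8%. The KO share was 16.1% in clustered Zfp genes and 5.11% over all protein-coding genes. The 30.1 kb formed 84 blocks in 33 genes, and 56 genes had none. Of these bases, 86.5% were covered in a WT library, against 92.5% in clustered genes and 55.7% over all genes. Such a share depends on how much of the spans WT peaks cover. WT libraries covered 27.6% and 27.1% of all bases in isolated genes and 48.9% and 48.2% in clustered genes. Over all protein-coding genes they covered 20.1% and 19.4%. In the 13 genes above, 14717 bases were covered in both KO libraries, and 14022 of them (95.3%) were covered in both WT libraries as well. The longest such block was 937 bases, in Zfp3. Zfp639 had 10.8% and 17.4% in KO cells but no base covered in both. Within 20 kb on either side of the 13 genes, median coverage was 3.78% and 6.76% in KO cells, against 9.47% and 10.2% in WT cells.

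Calling peaks against IgG in place of Input lowered coverage but kept most calls. Of 70 isolated genes tested, 65 were lower and 0 were higher, against 91.4% and 0.218% of all 9635 genes tested. All 65 were also lower against Input. WT coverage was lower against IgG by 20 points or more at 10 of the 89 genes. Zfp408, with 0% and 0% in KO cells, had 71.3% and 68.9% in WT cells against Input but 71.3% and 9.11% against IgG, where its fall was not called (limma adjusted p = 0.194). Zfp3 had 18.6% and 32.7% in KO cells, against 63.5% and 20.2% in WT cells, in the lists against IgG, where the groups overlapped and the call was lost (limma adjusted p = 0.428). Zfp369 had 12.2% and 23.5% in KO cells, against 78.4% and 34.7% in WT cells, against IgG (limma adjusted p = 0.113). Zfp661 had 18.5% and 12.1% in KO cells, against 9.21% and 19.9% in WT cells, against IgG, where its difference turned to 0.773 points. Against Input it had 18.5% and 15.8% in KO cells, against 48.4% and 45.4% in WT cells, a difference of -29.7 ± 2.41 points (limma adjusted p = 0.000802).

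**Figure D4:**
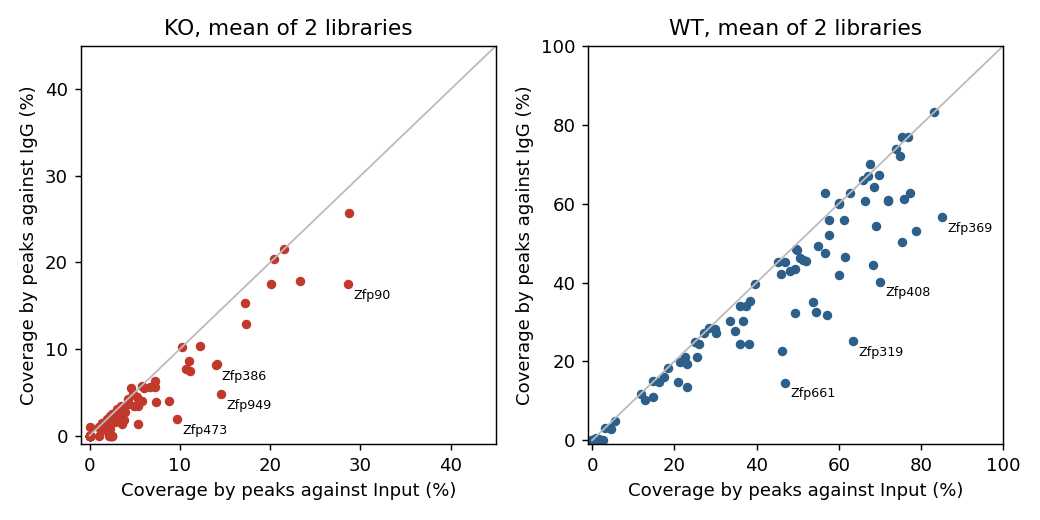
Mean coverage of each of the 89 isolated zinc finger genes by peaks against IgG (vertical axis, %) and against Input (horizontal axis, %), in KO cells on the left and WT cells on the right, on different axis ranges; the grey line marks equal values and the 4 genes farthest below it carry names. Most genes lie on or below the line, and Zfp408 and Zfp661 lie far below it in WT cells.

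Genes through which KRAB proteins act, a list of KAP1 and HUSH complex partners, were lower in KO cells at a share near that of all genes. Of 26 names on it 24 matched the gene table, and all 24 were tested and lower, beside 92.6% of all genes tested against Input and 91.4% against IgG. After scaling, 15 were lower and 0 higher, beside 45.2% and 2.41% of all genes tested. Setdb1 had 1.59% and 3.47% in KO cells, against 84.9% and 87.9% in WT cells, the largest fall on the list at -83.9 ± 2.27 points (limma adjusted p = 0.000211). Chd4 and Daxx followed, at -82.2 and -80.1 points. Trim28 had 0% and 9.37% in KO cells, against 64.8% and 76.4% in WT cells, a difference of -65.9 points. The smallest falls were at Atrx, Cbx5 and Uhrf1, at -23.3, -30.7 and -41.0 points. The median difference was -64.1 points in this list, and 0 of its 24 genes were at 10% or more in both KO libraries, beside 1.95% of all protein-coding genes. Among 52 genes named Zbtb or Klf, other zinc finger factors, 39 were tested, 35 were lower and 1 was higher, beside 92.6% and 0.555% of all genes tested. At 10% or more in both KO libraries was 1 of the 52, beside 1.95% of all protein-coding genes. The gene that was higher was Klf14, with 29.8% and 52.8% in KO cells, against 0% and 0% in WT cells (limma adjusted p = 0.0136).

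As a check of the label, 13 of 16 stromal marker genes passed the filter, with a mean over the 16 of 2.48% and 2.66% in KO cells, against 47.4% and 44.1% in WT cells; Thy1 and Twist1 had no peak in any library and Lepr was near 0 in WT cells. Haematopoietic markers were covered too. Averaged over 12 of them, coverage was 2.62% and 6.95% in KO cells, against 23.5% and 30.1% in WT cells. Lyz2 had 0% and 11.4% in KO cells, against 74.9% and 87.6% in WT cells, whereas Cd3e had no peak in WT cells. Of 6 endothelial markers, 1 was tested. Against IgG 8 of the 16 stromal markers passed the filter, with a mean over the 16 of 20.2% and 17.5% in WT cells. The haematopoietic mean was then 12.8% and 17.4% in WT cells, and that of all protein-coding genes 21.8% and 21.1%. The check of the label thus depends on the control. The part of other marrow cells in the coverage of the zinc finger genes was not tested. Fewer cells with the mark and less of the mark per cell cannot be told apart. Setd2 transcript and protein were not measured here.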

How the data were processed

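Coverage of genes by H3K36me3 peaks was compared between 2 KO and 2 WT libraries. Reads were aligned to GRCm38 with Bowtie2, per the submitters' processing notes. The authors deposited 8 peak lists, 2 per library, called per library against Input or IgG; the peak names begin with MACS, and neither version nor settings of the caller could be read from the labels or headers. The score column is the authors' own value per peak, at least 13.01 in every deposited list, and ranked peaks within a list only. No read counts or depths were used, so no counting interval can be given, and how many reads a missing peak stands for is unknown.

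Peaks of a library were merged and intersected with gene spans of the RefSeq table for GRCm38.p6 (any overlap of 1 bp), giving percent of span. Strand and promoter sequences came from the RefSeq promoter table of the same build. Genes with mean coverage of 10% or more over the 4 libraries were fitted with limma 3.58.1 (trend and robust options, genotype only) in R 4.3.3; p-values were adjusted by Benjamini-Hochberg over all genes fitted and called below 0.05. The fit was tested on simulated data. The scaled fit set each library to the mean gene coverage over the 4 libraries and kept the same genes. Python 3.11.15 and pandas 2.3.3 were used. Alternatives were the IgG lists, peaks at or above the median score of their list, merging of peaks within 1 kb, no filter, a 25% filter, scaling, the replicate block, limma without its options, isolation distances of 0.5 and 2 Mb, and leaving out each library.

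Named genes were the 8 largest and 8 smallest falls, the 5 highest in WT and in KO coverage among genes of at least 5 kb, genes called higher, genes whose direction differed between controls, the 3 longest, and a list of known regulators, 31 in all; further genes were named for their known role, after their values were seen. The members and lists were chosen with earlier results of these data known.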

Additional observations from a re-analysis of the deposited data

How the results depend on the processing

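The count of 72 isolated zinc finger genes lower in KO cells stayed within 1.5 times under the IgG lists, the score limit, merging, no filter and limma without its options, at 62 to 75, and was 66 without the 6 genes that share 10% or more of their span, a choice made after seeing the data. It was 45 with a 25% filter, which tests fewer genes, and 26 after scaling, and ranged from 51 to 70 when 1 library was left out. The count higher was 1 with no filter and 5 after scaling, and 0 otherwise. After scaling, 28 of 224 clustered genes tested were lower and 11 were higher. Of the KAP1 and HUSH partners tested, 15 of 24 were lower and 0 higher. Of the Zbtb and Klf genes tested, 18 of 39 were lower and 1 higher. These counts stand beside 45.2% lower and 2.41% higher among all genes tested. With a 25% filter, 17 Zbtb and Klf genes were lower. The clustered count of 218 became 128 without WT library 1 and 133 without WT library 2, and ranged up to 210 when a KO library was left out; the Zbtb and Klf count ranged from 25 to 34 and the partner count from 22 to 24. The median difference of -39.1 points became -33.7 against IgG, -32.2 with the score limit, -47.0 after merging and -7.21 after scaling, and ranged from -41.6 to -38.4 when 1 library was left out; it was -39.2 and -38.3 with isolation distances of 0.5 and 2 Mb. The count of genes at 50% or more in both WT libraries, 35, was 21 against IgG, 24 with the score limit and 46 after merging, and ranged from 40 to 41 when 1 WT library was left out. The cause of these changes was not tested.

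Scaling raises KO values relative to WT values at every gene, so scaled points are not percent of span. Under it 12 of the 31 named genes reversed to higher values in KO cells, of which Zfp951, Zfp438 and Zfp704 were called: Zfp3 by 89.1, Zfp90 by 79.6, Zfp959 by 54.1, Zfp369 by 53.7, Zfp661 by 51.0, Zfp958 by 50.7, Zfp951 by 38.9, Zfp438 by 24.0, Zfp1 by 19.9, Zfp704 by 12.5, Zfp827 by 5.29 and Zfp697 by 3.01 points. Zfp438 reversed to 1.91 points with the score limit, and Zfp661 to 0.773 points against IgG. Calls were lost at 8 named genes without WT library 1 and at 7 without WT library 2. Across genes, the difference between libraries 1 and 2 in KO cells was not correlated with that in WT cells (r = -0.00333 over 10809 genes). This cannot tell whether libraries of the same number share a culture, mouse or batch, since a shift common to all genes does not enter r. With the replicate block the counts lower were 72 isolated, 218 clustered, 24 partner and 33 Zbtb and Klf genes. Depth, unknown here, limits which weak peaks could be called.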
